A study of Mus musculus with 25 samples.

Results

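The comparison described here set type 1 innate lymphoid cells of the gut against their immature counterparts in bone marrow. LPL ILC1s, the ILC1s of the intestinal lamina propria, had been sorted as CD3- NK1.1+ NKp46+ CD27+ IL-7R+ cells. BM iILC1s, the immature ILC1s of bone marrow, had been sorted as CD3- NK1.1+ NKp46+ CD49a+ CD49b lo cells. The libraries were found by their labels, with 4 of LPL ILC1s and 3 of BM iILC1s among 25 libraries in 8 groups, and 14123 of the 46078 genes in the table passed the filter on low counts. The other groups were salivary gland G1-ILCs (SG G1-ILCs, 2 libraries), fetal liver G1-ILCs (FL G1-ILCs, E18.5, 4 libraries), adult liver 7R+ ILC1s (AL 7R+ ILC1s, 3 libraries), AL 7R- ILC1s (4 libraries), and the NK cells of adult liver (2 libraries) and bone marrow (3 libraries). All mice were wild-type C57BL/6 animals with no treatment given in the labels, aged 8 weeks except for the fetuses, and RNA-seq libraries were made from 2000 sorted cells each, according to the labels. Nothing in the labels says which animals the libraries came from, so the p-values measure the spread between these libraries.

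The tissues were prepared differently. Guts were freed of epithelium with EDTA, minced and digested with collagenase D and DNase I at 37 °C before Percoll, whereas marrow was flushed from femurs and tibias with no enzyme. Salivary glands were also minced and digested, and livers were dissociated mechanically. Organ, gate and preparation therefore change together between LPL ILC1s and BM iILC1s and cannot be told apart. Genes known to respond to warm enzymatic digestion were kept in a list of their own and taken out of every other list. In bulk libraries, fewer cells that express a gene and less RNA per cell also cannot be told apart.

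As background, ILC1s and NK cells form the group 1 innate lymphocytes, which use the transcription factor T-bet and make interferon-gamma. ILC1s of solid organs mostly stay in their tissue, while NK cells recirculate. Immature ILC1s of the marrow are thought to seed peripheral tissues. Group 1 cells of the gut live beside microbes, dietary ligands and nerves, and tissue residence is commonly marked by loss of the receptors for exit (such as S1PR1) and gain of retention and chemokine receptors.

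Libraries held 4343237 to 4999859 counts in LPL ILC1s and 4483059 to 4646902 counts in BM iILC1s, a range that overlaps. Mitochondrial genes took 0.28 to 0.36% of counts in LPL ILC1s and 0.569 to 0.68% in BM iILC1s, ranges that do not overlap, and the part of this in the differences below was not tested. Levels are given as CPM, a library's counts scaled to a common total by the TMM method, without correction for gene length, so they compare libraries and not genes. The gate genes were present in all 7 libraries. Il7r was at 787, 649, 776 and 728 CPM in LPL ILC1s and 1189, 1043 and 1119 CPM in BM iILC1s (log2 fold change -0.60 ± 0.16, adjusted p = 0.00269). Ncr1, which encodes NKp46, averaged 624 ± 31.1 CPM in LPL ILC1s and 1789 ± 189 CPM in BM iILC1s. Klrb1c, which encodes NK1.1, averaged 912 ± 64.8 CPM in LPL ILC1s and 1908 ± 96.8 CPM in BM iILC1s. Itga1, which encodes the CD49a used to gate the marrow cells only, was at 76.1, 116, 117 and 96.7 CPM in LPL ILC1s and 215, 169 and 103 CPM in BM iILC1s, and the groups overlapped although the fit called the gene lower (log2 fold change -0.68 ± 0.23, adjusted p = 0.0179, and 0.13 with DESeq2). Itga2 (CD49b) averaged 6.22 ± 3.22 CPM in LPL ILC1s and 41.5 ± 1.73 CPM in BM iILC1s, and Cd27 averaged 55.97 ± 10.2 CPM in LPL ILC1s and 132 ± 16.5 CPM in BM iILC1s. These genes encode gate markers or their partners and are given as a check of the labels.

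Markers of other cells were measured next, since the gates could hold some. The granulocyte list of 20 genes summed to 75.0 to 98.1 CPM in LPL ILC1s, against 37.5, 1670 and 37.5 CPM in BM iILC1s. BM iILC1s replicate 2 thus stood apart, and neutrophil granule genes were high in that library alone, such as Ltf at 0.982, 128 and 0 CPM over the BM iILC1s replicates. Ngp was at 3.53, 174 and 0.599 CPM in the same libraries, and its adjusted p was 0.224 without replicate 2. Of 11 granulocyte genes tested, 7 were lower and 1 (Mmp9, adjusted p = 0.26 with DESeq2) higher in LPL ILC1s, and the fold change of Ltf turned positive without that library (1.21 ± 1.57 on the log2 scale, adjusted p = 0.554 by edgeR). Of 21 tested genes of monocytes, macrophages and dendritic cells, 11 were lower and 3 (H2-Ab1, Cd74 and Ccr2) higher in LPL ILC1s, of which Cd74 and Ccr2 lost their call without BM iILC1s replicate 3 (adjusted p = 0.175 for Cd74 and 0.0754 for Ccr2 by edgeR). The complement genes C1qa, C1qb and C1qc averaged 0.0693, 0.215 and 0.214 CPM in LPL ILC1s and 21.9, 44.3 and 39.3 CPM in BM iILC1s. The sum of this list covered 1267 to 1361 CPM in LPL ILC1s and 847 to 1277 CPM in BM iILC1s, and Ccr2 and Cd74 carried most of it. The T cell list summed to 1719 to 1906 CPM in LPL ILC1s and 1460 to 1786 CPM in BM iILC1s, with Trbc1 its largest member. Of its 11 tested genes, 6 were lower in LPL ILC1s, among them Cd3e and Cd3d, and 2 (Trbc1 and Cd28) were higher. Of 10 tested erythroid and megakaryocyte genes, 5 were lower in LPL ILC1s, and the globin genes Hba-a1 and Hbb-bs had 3 and 1 counts in the LPL libraries and 618 and 391 in the BM libraries. The higher member was Car2, which also occurs in other cells, and it averaged 3234 CPM in LPL ILC1s and 349 CPM in BM iILC1s. The intestinal epithelium list summed to 69.4 to 133 CPM in LPL ILC1s and 19.84 to 32 CPM in BM iILC1s. Cdh1 and Epcam, adhesion genes that some ILCs also express, were its called members, while the enterocyte genes Fabp1 and Apoa1 had too few counts to test. The plasma cell list stayed under 25.1 CPM in LPL ILC1s and 23.4 CPM in BM iILC1s. The part of these cells in the differences below was not tested.

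**Figure D1:**
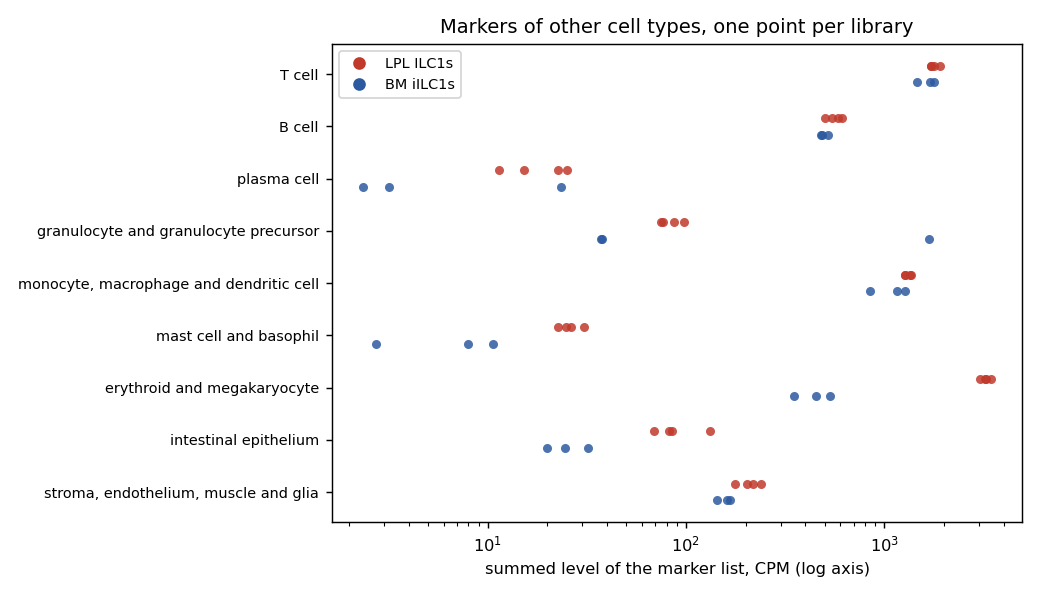
Summed level of 9 marker lists of other cell types in each library, in CPM on a log axis, with 4 LPL ILC1s libraries (red) above 3 BM iILC1s libraries (blue) in each row. The granulocyte list reaches 1670 CPM in BM iILC1s replicate 2 and is at most 98.1 CPM in the other 6 libraries, and the sum of the erythroid list is higher in LPL ILC1s through Car2 alone, while its 5 called globin and heme genes are lower.

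The digestion response genes had the highest median difference of 28 gene lists and are described apart. They comprise immediate early factors (Fos, Jun, Egr1, Atf3, the Nr4a receptors), heat shock chaperones and feedback inhibitors of signalling, which are induced within minutes by heat, calcium or stress in many cell types. Of the 64 tested, 54 were higher in LPL ILC1s and 1 was lower (Hmox1), at an adjusted p under 0.05 in edgeR's quasi-likelihood test. The same test called 23.8% of all genes higher in LPL ILC1s and 26.9% lower, or 50.7% in either direction. The median log2 fold change of the list was 3.05, beside -0.065 over all genes tested.

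Sequences upstream of 5 genes that moved strongly are shown here, because they hold short elements known from stress and cAMP signalling. They are the 250 bases before the annotated start (RefSeq, GRCm38.p6), with capitals marking GAANNTTC (the paired unit of a heat shock element) and TGACG or its complement (the core of a cAMP response element). Hspa1b lies at chr17:34959239-34959488 on the minus strand, Fos at chr12:85473640-85473889 on the plus strand, and Nr4a1 at chr15:101266596-101266845 on the plus strand. Areg lies at chr5:91139349-91139598 on the plus strand and Calca at chr7:114636358-114636607 on the minus strand.
Hspa1b: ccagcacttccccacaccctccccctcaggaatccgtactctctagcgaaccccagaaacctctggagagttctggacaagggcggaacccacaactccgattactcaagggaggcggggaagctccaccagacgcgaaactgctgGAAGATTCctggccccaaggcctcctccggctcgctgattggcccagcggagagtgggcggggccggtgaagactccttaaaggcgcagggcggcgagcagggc
Fos: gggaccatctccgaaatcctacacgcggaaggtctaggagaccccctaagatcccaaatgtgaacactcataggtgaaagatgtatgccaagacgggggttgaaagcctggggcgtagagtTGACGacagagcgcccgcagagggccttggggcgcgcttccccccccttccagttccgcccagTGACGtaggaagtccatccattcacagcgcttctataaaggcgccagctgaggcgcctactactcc
Nr4a1: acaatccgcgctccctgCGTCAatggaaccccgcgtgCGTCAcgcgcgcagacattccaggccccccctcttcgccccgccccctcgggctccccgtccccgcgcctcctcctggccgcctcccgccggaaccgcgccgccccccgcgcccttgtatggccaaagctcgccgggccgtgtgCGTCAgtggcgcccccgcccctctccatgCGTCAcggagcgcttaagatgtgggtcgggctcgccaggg
Areg: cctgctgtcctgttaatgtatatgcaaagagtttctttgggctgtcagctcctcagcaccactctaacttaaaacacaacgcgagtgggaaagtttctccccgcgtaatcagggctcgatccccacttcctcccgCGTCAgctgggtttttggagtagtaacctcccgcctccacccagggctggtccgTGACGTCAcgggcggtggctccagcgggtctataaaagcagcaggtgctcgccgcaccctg
Calca: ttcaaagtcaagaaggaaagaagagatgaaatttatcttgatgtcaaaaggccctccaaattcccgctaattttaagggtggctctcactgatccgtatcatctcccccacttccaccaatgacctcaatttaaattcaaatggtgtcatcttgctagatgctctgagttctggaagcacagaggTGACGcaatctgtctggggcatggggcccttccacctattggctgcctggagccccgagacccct
Searched on both strands, GAANNTTC occurred in 6.69% of 32851 windows of this length over all genes, and TGACG in 17.8%. The full palindrome TGACGTCA, which contains TGACG on each strand, occurred in 1.55% of windows and in that of Areg. Counted per gene, with a match in any of its windows, 19.8% of all genes with a window had TGACG and 7.73% had GAANNTTC. Of the digestion list, 52 of 65 genes had a window, and 29 (55.8%) of these had TGACG, while 9 (17.3%) had GAANNTTC. A match is a description of the sequence and says nothing of binding in these cells.

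Hspa1b was at 804, 1665, 459.7 and 338 CPM in LPL ILC1s and 1.57, 1.38 and 1.198 CPM in BM iILC1s (log2 fold change 9.18 ± 0.60, adjusted p = 1.03e-12). Its neighbour Hspa1a encodes a nearly identical inducible HSP70, so reads could be assigned to either gene, and it averaged 361 ± 252 CPM in LPL ILC1s and 0.786 ± 0.855 CPM in BM iILC1s. Replicate 2 was highest for both genes. Every LPL library exceeded every BM library, and the digestion genes named here were chosen only among those without overlap. Fos was at 471, 536, 409.7 and 369 CPM in LPL ILC1s and 0.589, 1.96 and 0.399 CPM in BM iILC1s (log2 fold change 8.78 ± 0.49, adjusted p = 4.85e-14). Fosb was at 264, 313, 263 and 295 CPM in LPL ILC1s and 0.196, 0.589 and 0.399 CPM in BM iILC1s (log2 fold change 9.40 ± 0.30, adjusted p = 3.13e-19). Both encode subunits of AP-1. Nr4a1 was at 4797, 5312, 5802 and 4665 CPM in LPL ILC1s and 14.9, 24.4 and 27.6 CPM in BM iILC1s (log2 fold change 7.85 ± 0.58, adjusted p = 1.34e-11). The orphan receptor Nr4a1 is induced by antigen receptor signalling as well as by stress, and all 4 LPL libraries lay far above the marrow range.

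The list was also high in the other digested tissue. The 65 genes of the list summed to 82650 to 97130 CPM in LPL ILC1s, 48240 to 51500 CPM in SG G1-ILCs and 8613 to 8877 CPM in BM iILC1s, and the other 5 groups covered 8514 to 12670 CPM. Fos averaged 1776 CPM in SG G1-ILCs, Hspa1b 2141 CPM and Nr4a1 1294 CPM. The SG value was above the LPL mean for Fos and Hspa1b and below it for Nr4a1. Some marker lists of other cells were higher in SG G1-ILCs than in LPL ILC1s. In SG G1-ILCs, the monocyte, macrophage and dendritic cell list summed to 3864 to 4083 CPM and the plasma cell list to 413 to 427 CPM. The intestinal epithelium list reached 846 to 982 CPM and the B cell list 840 to 865 CPM. The T cell, granulocyte, mast cell, erythroid and stroma lists were lower. The part of other cells in the SG values was not tested. In AL 7R+ ILC1s, from mechanically dissociated livers, Fos averaged 1.79 CPM, Hspa1b 4.901 CPM and Nr4a1 20.9 CPM. Hmox1, which degrades heme and is abundant in marrow macrophages, was the exception. Hmox1 was at 5.83, 0.8604, 1.78 and 3.601 CPM in LPL ILC1s and 44.4, 83.3 and 66.7 CPM in BM iILC1s (log2 fold change -4.42 ± 0.67, adjusted p = 4.28e-06). Members with no call included Egr2, Bag3, Sgk1, Brd2 and Dusp2. The part of the preparation in these differences was not tested.

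**Figure D2:**
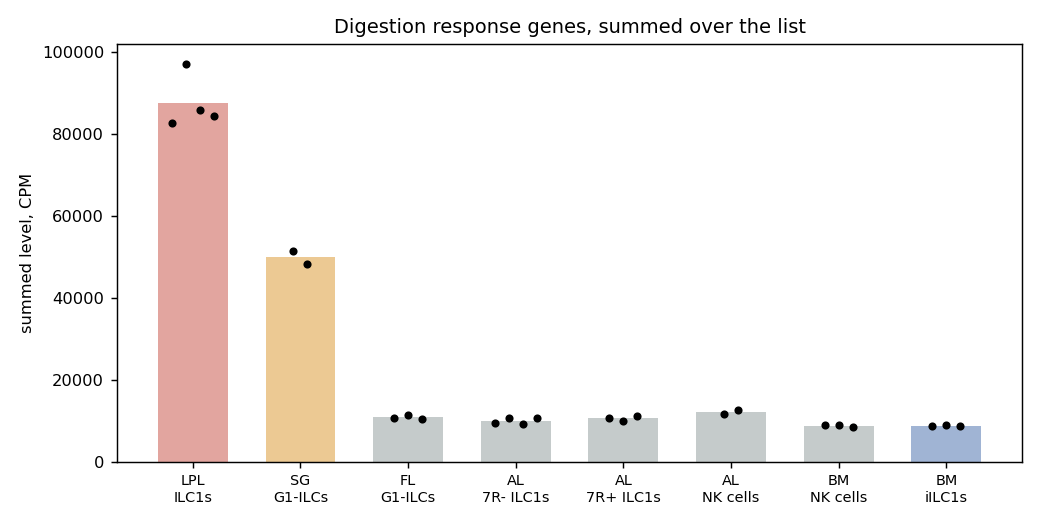
Summed level in CPM of the 65 digestion response genes, with a bar for the mean of each of 8 groups and a point for each library. LPL ILC1s (82650 to 97130 CPM) and SG G1-ILCs (48240 to 51500 CPM) stand above all other groups, and BM iILC1s lie between 8613 and 8877 CPM.

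Across all genes, 7155 of 14123 were called, and 6490 without BM iILC1s replicate 2. Outside that list, 7100 of 14059 genes differed between LPL ILC1s and BM iILC1s, with 3306 higher and 3794 lower. Of all 7155 called genes, 4252 had a log2 fold change beyond 1 in size, 1915 of them higher and 2337 lower. The libraries of the groups did not overlap for 7030 of the 14123 genes. The counts in each list below stand beside that background of 23.8% higher and 26.9% lower. Which direction had more calls depended on the processing. DESeq2 called 3680 genes higher and 3551 lower, and RLE scaling 3653 higher and 3526 lower. With no filter on low counts, 2768 were higher and 4070 lower.

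**Figure D3:**
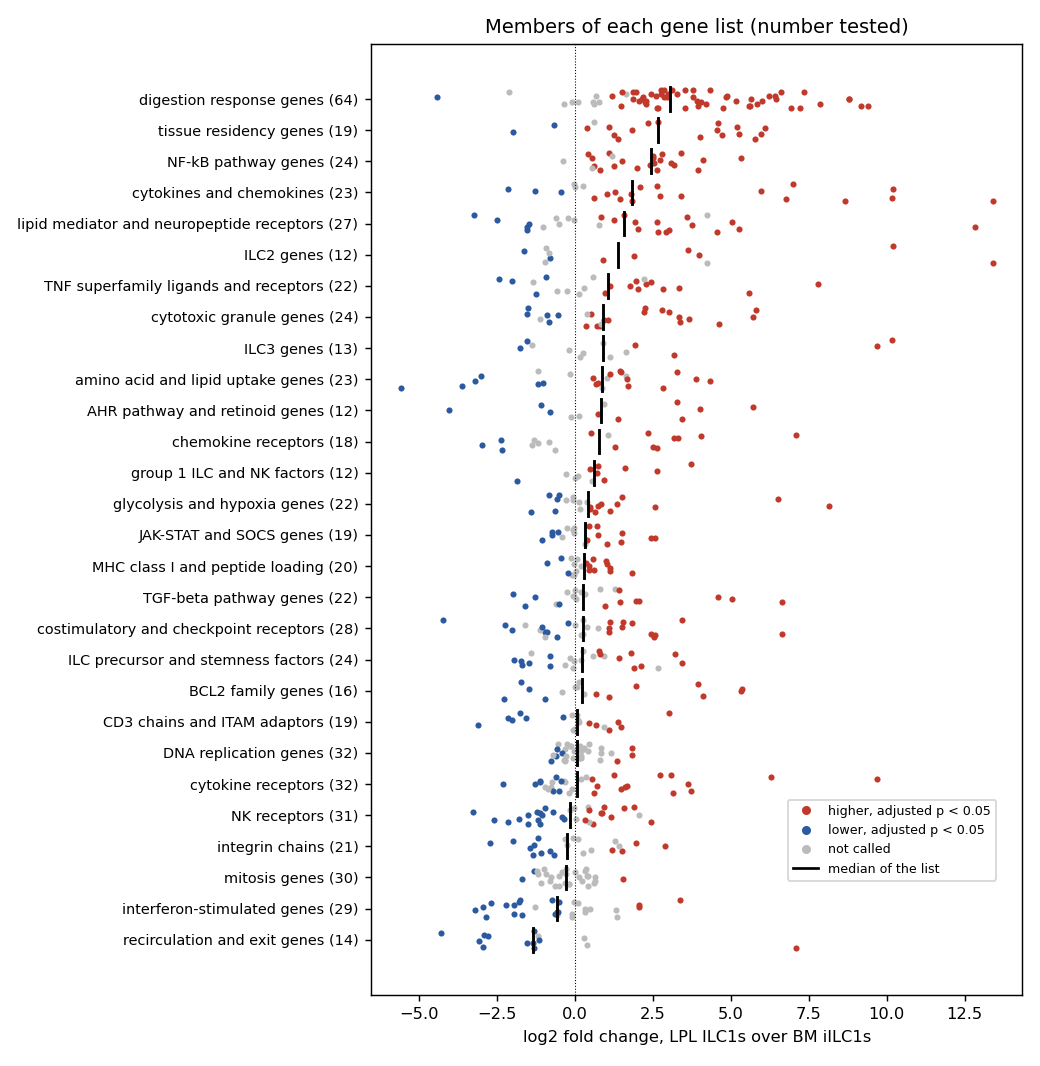
Log2 fold change of LPL ILC1s over BM iILC1s for each tested member of 28 gene lists, ordered by median (black bar). Red and blue points are genes called higher and lower at an adjusted p under 0.05, and grey points were not called. Digestion response, tissue residency and NF-kB genes lie furthest to the right, and recirculation and interferon-stimulated genes furthest to the left.

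Of 12 factors of group 1 cells, 7 were higher in LPL ILC1s and 1 was lower. Tbx21, which encodes T-bet, was at 1595, 1473, 1387 and 1408 CPM in LPL ILC1s and 696, 810.1 and 811 CPM in BM iILC1s (log2 fold change 0.92 ± 0.08, adjusted p = 2.94e-10). Irf8, an interferon regulatory factor needed for NK cell effector function, averaged 1702 ± 236 CPM in LPL ILC1s and 129 ± 3.82 CPM in BM iILC1s (log2 fold change 3.72 ± 0.14). In SG G1-ILCs, Irf8 was at 1169 and 1524 CPM. Nfil3, a factor of ILC commitment, averaged 314 ± 25.4 CPM in LPL ILC1s and 51.3 ± 15.6 CPM in BM iILC1s. Zfp683, which encodes the tissue-residence factor Hobit, was the lower member. Zfp683 was at 11.96, 14.6, 14.7 and 8.03 CPM in LPL ILC1s and 51.05, 41.8 and 41.7 CPM in BM iILC1s (log2 fold change -1.86 ± 0.18, adjusted p = 3.17e-09). Every LPL library was below every BM library. Eomes, the NK cell counterpart of T-bet, was at 37.04, 33.8, 23.1 and 111 CPM in LPL ILC1s and 29.2, 29.5 and 45.9 CPM in BM iILC1s, with LPL replicate 4 alone above the marrow range, and it was not called (adjusted p = 0.225). Prdm1 (Blimp-1) averaged 32.96 ± 4.72 CPM in LPL ILC1s and 32.6 ± 5.07 CPM in BM iILC1s and was not called either (adjusted p = 0.955).

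Rora, a nuclear receptor required for ILC2s and used by other helper ILCs, was markedly higher in gut cells. Rora was at 1987, 1762, 1476 and 1748 CPM in LPL ILC1s and 208, 206 and 165 CPM in BM iILC1s (log2 fold change 3.17 ± 0.17, adjusted p = 1.53e-14). Gata3, which supports IL-7R expression in helper ILCs, averaged 438 ± 37.7 CPM in LPL ILC1s and 236 ± 25.97 CPM in BM iILC1s (log2 fold change 0.89 ± 0.10). Of 24 factors of ILC precursors and stemness, 8 were higher and 6 lower in LPL ILC1s. Kit, the stem cell factor receptor, was among the higher genes. Kit was at 728, 650.5, 626 and 595 CPM in LPL ILC1s and 79.7, 90.2 and 41.7 CPM in BM iILC1s (log2 fold change 3.20 ± 0.37, adjusted p = 4.45e-08). Ikzf2 (Helios) averaged 728 ± 101 CPM in LPL ILC1s and 169 ± 16.8 CPM in BM iILC1s. Pdcd1, which encodes PD-1 and marks ILC precursors in marrow, averaged 11.6 ± 5.27 CPM in LPL ILC1s and 1.05 ± 0.109 CPM in BM iILC1s. Ikzf1, Lef1, Slamf6 and Bcl2 were lower. Lef1, a partner of the Wnt pathway, averaged 70.8 ± 12.98 CPM in LPL ILC1s and 236 ± 13.98 CPM in BM iILC1s (log2 fold change -1.74 ± 0.14, adjusted p = 9.71e-11). Ikzf1 averaged 83.9 ± 17.8 CPM in LPL ILC1s and 327 ± 11.8 CPM in BM iILC1s. Tcf7, which encodes TCF-1, was at 366, 359.6, 336 and 327 CPM in LPL ILC1s and 178, 194 and 225 CPM in BM iILC1s, with no overlap (log2 fold change 0.81 ± 0.16, adjusted p = 0.000128).

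**Figure D4:**
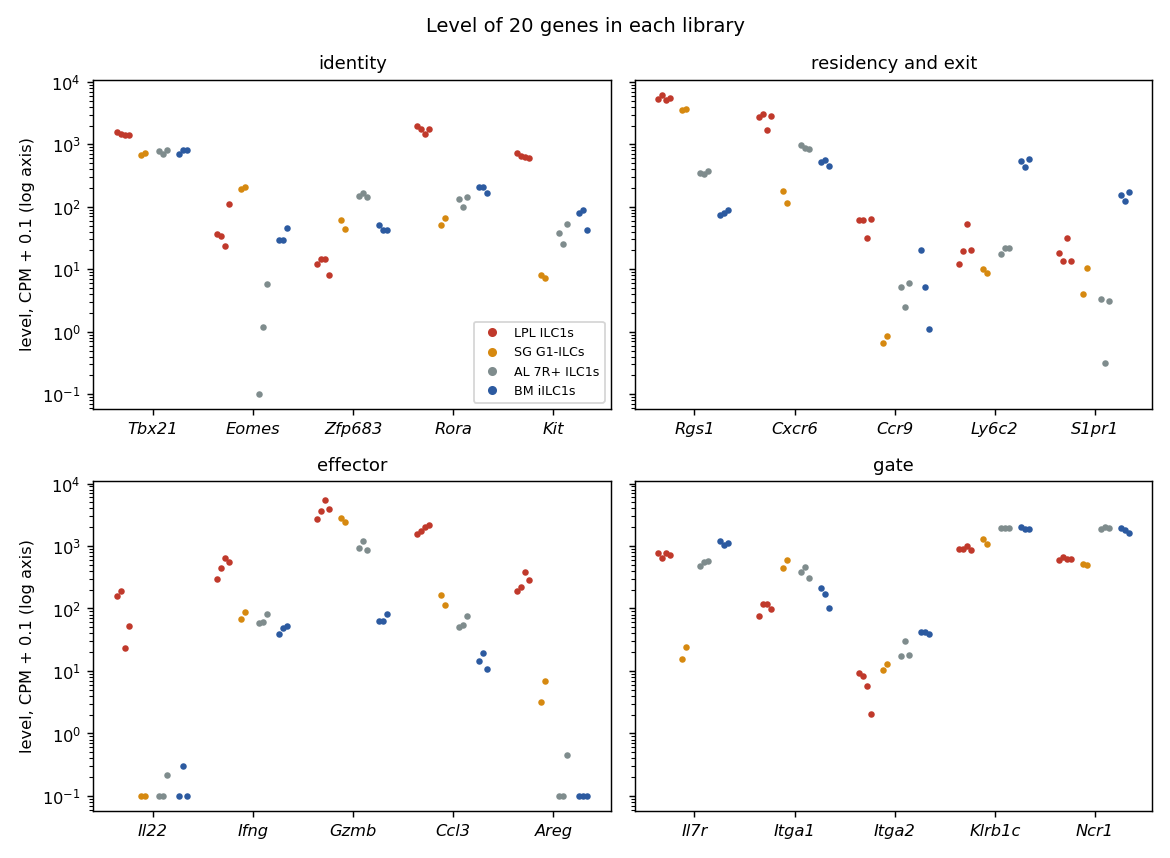
Level of 20 genes in each library of LPL ILC1s (red), SG G1-ILCs (orange), AL 7R+ ILC1s (grey) and BM iILC1s (blue), as CPM plus 0.1 on a log axis. Rora, Kit, Rgs1, Cxcr6 and Ccl3 are highest in LPL ILC1s, Ly6c2 and S1pr1 are highest in BM iILC1s, and Il22 and Areg are near 0 in BM iILC1s.

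Genes of tissue residency and of exit moved in opposite directions. Of 19 residency genes, 16 were higher in LPL ILC1s and 2 (Itgae and Itga1) lower, with a median log2 fold change of 2.65. The list summed to 21520 to 24500 CPM in LPL ILC1s and 12020 to 12050 CPM in SG G1-ILCs, the other digested group. It summed to 3383 to 3587 CPM in AL 7R+ ILC1s and 1635 to 1841 CPM in BM iILC1s. The part of the preparation in the residency differences was not tested. Of 14 genes of recirculation and exit, 10 were lower and 1 higher, with a median of -1.33. Rgs1 was at 5332, 6221, 5043 and 5589 CPM in LPL ILC1s and 73.4, 78.2 and 90.2 CPM in BM iILC1s (log2 fold change 6.10 ± 0.11, adjusted p = 7.63e-24). Rgs1 damps chemokine receptor signalling and is a common marker of resident lymphocytes. Its level was 3601 and 3692 CPM in SG G1-ILCs and 345, 332 and 377 CPM in AL 7R+ ILC1s. Cxcr6, the receptor for CXCL16, was at 2781, 3030, 1687 and 2813 CPM in LPL ILC1s and 527, 557 and 457 CPM in BM iILC1s. In SG G1-ILCs, Cxcr6 was lower, at 180.5 and 117 CPM. P2rx7 was at 67.95, 129, 90.7 and 113 CPM in LPL ILC1s and 1.96, 4.32 and 1.398 CPM in BM iILC1s (log2 fold change 5.27 ± 0.34, adjusted p = 7.60e-13). P2rx7, at 3.1 and 2.53 CPM in SG G1-ILCs, encodes the receptor for extracellular ATP. An ARTC2.2 nanobody, which protects cells with this receptor from death during preparation, was given to mice in some experiments of the study, and whether it was given for these libraries is not stated in the sources used here. Hic1, which encodes a retinoic acid-responsive repressor needed by intestinal lymphocytes, was at 44.3, 59.6, 52.4 and 76.7 CPM in LPL ILC1s and 0.785, 3.34 and 6.59 CPM in BM iILC1s. Litaf averaged 2292 ± 199.9 CPM in LPL ILC1s and 42.2 ± 4.61 CPM in BM iILC1s. It was at 1745 and 1793 CPM in SG G1-ILCs and 97.8, 90.05 and 90.5 CPM in AL 7R+ ILC1s. Itgae, the CD103 chain that binds E-cadherin, went the other way at 3.79, 1.72, 1.02 and 2.22 CPM in LPL ILC1s and 11.2, 7.66 and 7.19 CPM in BM iILC1s, low levels in both (adjusted p = 0.00076). Among the exit genes, S1pr1 was at 17.8, 13.5, 31.5 and 13.6 CPM in LPL ILC1s and 155, 122 and 172 CPM in BM iILC1s (log2 fold change -2.96 ± 0.29, adjusted p = 2.22e-09). S1pr1 encodes the sphingosine-1-phosphate receptor that draws lymphocytes into blood and lymph, and S1pr4 and S1pr5 were lower as well. Ly6c2 averaged 26.1 ± 18.2 CPM in LPL ILC1s and 515 ± 76.9 CPM in BM iILC1s. Klf2, the factor that drives S1pr1, was at 245, 241, 346 and 258 CPM in LPL ILC1s and 203, 215 and 245 CPM in BM iILC1s, and its call depended on the fit (adjusted p = 0.106 by edgeR, 0.046 with RLE scaling and 0.037 with DESeq2). Ccr7, the receptor for entry into lymph nodes, was the higher member, at 225, 88.9, 84.1 and 231 CPM in LPL ILC1s and 0, 2.95 and 0.399 CPM in BM iILC1s, and LPL libraries fell into a higher and a lower pair.

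Of 18 chemokine receptors, 9 were higher and 3 lower. Ccr9, the receptor for the small-intestinal chemokine CCL25, was at 62.1, 61.95, 31.8 and 64.5 CPM in LPL ILC1s and 20.2, 5.11 and 0.998 CPM in BM iILC1s (log2 fold change 2.64 ± 0.58, adjusted p = 0.000423). Marrow replicates spread widely for this gene, and no marrow library reached the lowest gut library. Cxcr4, which holds cells in marrow, averaged 223 ± 49.6 CPM in LPL ILC1s and 22.8 ± 1.56 CPM in BM iILC1s. Cxcr3, the receptor for interferon-induced chemokines, averaged 96.1 ± 14.9 CPM in LPL ILC1s and 491 ± 49.98 CPM in BM iILC1s (log2 fold change -2.35 ± 0.14). Of 21 integrin chains, 4 were higher and 9 lower. The gut-homing chain Itgb7 was lower in LPL ILC1s at 586, 486, 591 and 527 CPM, against 1167, 1220 and 1079 CPM in BM iILC1s, and its partner Itga4 averaged 233 ± 34.8 CPM in LPL ILC1s and 278 ± 18.4 CPM in BM iILC1s, with no call in the edgeR fit (adjusted p = 0.0615), though it was called lower without LPL ILC1s replicate 3 (adjusted p = 0.0122). Itgal, which encodes LFA-1, averaged 408 ± 45.2 CPM in LPL ILC1s and 1103 ± 119 CPM in BM iILC1s, while Itgav averaged 271 ± 48.7 CPM in LPL ILC1s and 69.95 ± 18.2 CPM in BM iILC1s.

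Sensors of dietary and microbial products were also different. The aryl hydrocarbon receptor binds plant and bacterial indoles, and vitamin A yields retinoic acid for the RAR receptors. Of 12 tested genes of these pathways, 6 were higher and 3 lower. Ahr averaged 156 ± 26.1 CPM in LPL ILC1s and 59.5 ± 8.602 CPM in BM iILC1s (log2 fold change 1.39 ± 0.17). Its target and repressor Ahrr had 165 counts in the LPL libraries and 3 in the BM libraries, a ratio of 57.8 with a 95% counting interval of 19.4 to 283. Tiparp, another target, averaged 263 ± 53.6 CPM in LPL ILC1s and 24.1 ± 3.02 CPM in BM iILC1s, but also 372 CPM in SG G1-ILCs. Cyp1a1, the classical target, had 23 counts over all 25 libraries and was not tested. Rarg was at 3.79, 3.15, 2.54 and 1.39 CPM in LPL ILC1s and 34.2, 54.2 and 46.1 CPM in BM iILC1s (log2 fold change -4.04 ± 0.30, adjusted p = 1.11e-11). Rarg encodes a retinoic acid receptor, and it was named by a rule that asked for no overlap between the groups. Hcar2, a receptor for niacin and butyrate, had 657 counts in LPL ILC1s and 1 in BM iILC1s, and Ffar2, the receptor for short-chain fatty acids, was at 12.8, 24.7, 18.8 and 16.6 CPM in LPL ILC1s and 0, 1.18 and 0.399 CPM in BM iILC1s. Hcar2 was at 34.3 to 51.05 CPM in LPL ILC1s and also at 19.5 and 16.9 CPM in SG G1-ILCs, where Ffar2 was at 0 CPM.

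The largest differences outside the digestion list included genes of neuropeptide signalling. Ramp3, which directs the calcitonin receptor-like receptor toward adrenomedullin, was at 178, 197, 166 and 193 CPM in LPL ILC1s and had no count in any of the 3 BM libraries. Against a floor of 3 counts over the BM libraries together, this was at least 926-fold higher (adjusted p = 6.78e-14). Calca, which encodes calcitonin gene-related peptide, had 2631 counts in LPL ILC1s and 2 in BM iILC1s, a ratio of 1380 with a 95% counting interval of 382 to 11400. It was also at 168 CPM in SG G1-ILCs, whereas Ramp3 averaged 1.76 CPM there. Ramp1, the partner that makes the same receptor bind CGRP, was lower at 14, 5.16, 18.8 and 9.14 CPM in LPL ILC1s, against 52.03, 83.5 and 64.7 CPM in BM iILC1s. The receptors for vasoactive intestinal peptide split, with Vipr2 at 4.67, 8.32, 8.89 and 2.22 CPM in LPL ILC1s and 1.96, 1.96 and 0.799 CPM in BM iILC1s, and Vipr1 at 1.17, 0.287, 0 and 3.05 CPM in LPL ILC1s and 7.66, 13.6 and 11.4 CPM in BM iILC1s. In all, 15 of 27 receptors for lipid mediators, nucleotides and neuropeptides were higher in LPL ILC1s and 5 lower, with a median log2 fold change of 1.56. Ltb4r1, the leukotriene B4 receptor, was lower at 7.58, 3.73, 4.83 and 3.32 CPM in LPL ILC1s and 12.96, 19.8 and 9.78 CPM in BM iILC1s (adjusted p = 0.0045).

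Secreted factors were mostly higher in gut cells. Of 23 cytokines and chemokines tested, 17 were higher and 3 lower, with a median log2 fold change of 1.84. Areg, which encodes the epithelial repair factor amphiregulin, was at 194, 220.3, 389 and 288 CPM in LPL ILC1s and had no count in BM iILC1s, so it was at least 1400-fold higher against the same floor (adjusted p = 2.70e-14). It averaged 4.96 CPM in SG G1-ILCs and 0.115 CPM in AL 7R+ ILC1s. Il22, a cytokine of ILC3s that acts on epithelium, was at 156, 192, 22.9 and 53.2 CPM in LPL ILC1s and had 1 count over the BM libraries. The ratio of 1560 had a 95% counting interval of 280 to 61700. Its level differed widely among gut libraries, with replicates 1 and 2 above replicates 3 and 4. Il23r, the receptor that drives IL-22, had 292 counts in LPL ILC1s and none in BM iILC1s, at least 102-fold higher. Il17a, Il17f, Il5 and Il13 had too few counts to test. Of 13 ILC3 genes 4 were higher and 2 lower, and of 12 ILC2 genes 6 were higher and 2 lower.

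Ifng was at 299.5, 442, 655 and 560.4 CPM in LPL ILC1s and 39.7, 48.7 and 52.1 CPM in BM iILC1s (log2 fold change 3.39 ± 0.23, adjusted p = 2.17e-12). Ifng is the signature cytokine of ILC1s, and the lowest gut library was above the highest marrow library. Ccl3 was at 1575, 1746, 2015 and 2188 CPM in LPL ILC1s and 14.1, 19.2 and 10.6 CPM in BM iILC1s (log2 fold change 7.00 ± 0.38, adjusted p = 1.95e-14). Ccl4 was at 2644, 2909, 3303 and 3591 CPM in LPL ILC1s and 36.9, 59.5 and 52.3 CPM in BM iILC1s (log2 fold change 5.97 ± 0.34, adjusted p = 5.26e-14). Both encode inflammatory chemokines. Ccl5 averaged 2513 ± 376 CPM in LPL ILC1s and 1644 ± 21.4 CPM in BM iILC1s, a small difference (log2 fold change 0.61 ± 0.10, adjusted p = 1.01e-05), and Xcl1 averaged 658 ± 69.8 CPM in LPL ILC1s and 184 ± 27.7 CPM in BM iILC1s. Il2, Ltb and Cxcl9 were the lower members. Il2 averaged 6.31 ± 2.46 CPM in LPL ILC1s and 15.5 ± 2.03 CPM in BM iILC1s. Cxcl2, a chemokine for neutrophils, had 922 counts in LPL ILC1s and 2 in BM iILC1s. Its level was 47.65 to 85.9 CPM in LPL ILC1s, with 40.9 and 48.3 CPM in SG G1-ILCs. Of 22 TNF superfamily ligands and receptors, 11 were higher and 4 lower. Tnfsf11, which encodes RANKL, was at 59.8, 51.9, 57.2 and 85.6 CPM in LPL ILC1s and 0, 0.589 and 0.1996 CPM in BM iILC1s. Tnfsf10, which encodes the death ligand TRAIL, was lower at 25.9, 72.3, 50.1 and 47.9 CPM in LPL ILC1s, against 86.98, 101 and 91.2 CPM in BM iILC1s. Vegfa, which encodes an angiogenic factor, averaged 497 ± 68.8 CPM in LPL ILC1s and 1.71 ± 0.22 CPM in BM iILC1s, with 640.5 CPM in SG G1-ILCs. Acod1, which makes itaconate, was at 205, 255, 331 and 256 CPM in LPL ILC1s and 0, 0 and 1.996 CPM in BM iILC1s, with 0.141 CPM in SG G1-ILCs.

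Cytotoxic granule genes were mostly higher in gut cells. Of 24 tested, 16 were higher and 5 lower. Gzmb was at 2703, 3573, 5426 and 3868 CPM in LPL ILC1s and 63.2, 63.2 and 80.5 CPM in BM iILC1s (log2 fold change 5.82 ± 0.22, adjusted p = 7.66e-18). Gzmc averaged 492 ± 141 CPM in LPL ILC1s and 9.34 ± 7.28 CPM in BM iILC1s. Gzma was at 1368, 2108, 2324 and 2197 CPM in LPL ILC1s and 190.1, 123 and 269.7 CPM in BM iILC1s. Prf1 was at 724, 777, 974 and 878 CPM in LPL ILC1s and 193, 158 and 175 CPM in BM iILC1s (log2 fold change 2.26 ± 0.12, adjusted p = 2.50e-14). Prf1 encodes perforin, which lets granzymes enter the target cell. Gzmb and Gzmc are similar in sequence, and the counting of reads shared between them is not given in the sources used here. The lower members included genes of granule release, Unc13d and Rab27a. Unc13d averaged 68.1 ± 17.4 CPM in LPL ILC1s and 199 ± 23.8 CPM in BM iILC1s, and Rab27a averaged 61.8 ± 13.2 CPM in LPL ILC1s and 115 ± 9.67 CPM in BM iILC1s. Stx11, also needed for release, averaged 416 ± 56.4 CPM in LPL ILC1s and 33.3 ± 9.12 CPM in BM iILC1s.

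Receptors of NK cells went both ways. Of 31 tested, 15 were lower and 10 higher in LPL ILC1s. The Ly49 genes Klra1, Klra6 and Klra7 were lower, though close copies in this family make the share of each uncertain. Klra7 was at 46.4, 21.8, 144 and 96.7 CPM in LPL ILC1s and 269, 253 and 292 CPM in BM iILC1s, with the gut libraries far apart. Klrb1f averaged 132 ± 35.6 CPM in LPL ILC1s and 590.2 ± 35.7 CPM in BM iILC1s, while its neighbour Klrb1b averaged 1586 ± 154 CPM in LPL ILC1s and 528 ± 51.5 CPM in BM iILC1s. Tigit, an inhibitory receptor, averaged 77.98 ± 15.8 CPM in LPL ILC1s and 14.5 ± 1.72 CPM in BM iILC1s. Transcripts of CD3 chains were present in both sorted populations although the gates took CD3- cells. Cd3e was at 8.16, 12.1, 21.9 and 25.5 CPM in LPL ILC1s and 152, 121 and 169 CPM in BM iILC1s (log2 fold change -3.12 ± 0.43, adjusted p = 1.21e-06). Cd3d and Cd3g were lower in LPL ILC1s as well, and replicates 3 and 4 had the most of all 3 chains among gut libraries. Cd3g averaged 50.6 ± 16.6 CPM in LPL ILC1s and 171 ± 27.9 CPM in BM iILC1s. Sh2d2a, an adaptor of antigen receptor signalling, averaged 2145 ± 86.5 CPM in LPL ILC1s and 268 ± 21.7 CPM in BM iILC1s, with 1597 and 1740 CPM in SG G1-ILCs. The kinase gene Syk averaged 27.96 ± 4.11 CPM in LPL ILC1s and 115 ± 4.195 CPM in BM iILC1s.

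Of 24 NF-kB pathway genes, which carry signals of TNF and Toll-like receptors, 21 were higher, and Ikbkg, Tnip2 and Tnip3 were not called (Ikbkg log2 fold change -0.37, adjusted p = 0.0585), with a median log2 fold change of 2.45. Rel averaged 807 ± 39.3 CPM in LPL ILC1s and 47.3 ± 9.35 CPM in BM iILC1s, with 120.5 CPM in SG G1-ILCs. The survival genes Bcl2a1b and Bcl2a1d were higher, but their sequences are nearly identical. Of 32 cytokine receptors, 14 were higher and 8 lower. Il2ra, the high-affinity chain for IL-2, was at 316, 346, 274 and 348 CPM in LPL ILC1s and 35.1, 34.6 and 38.5 CPM in BM iILC1s. Il21r averaged 1199 ± 153 CPM in LPL ILC1s and 90.9 ± 3.72 CPM in BM iILC1s, with 1034 and 1244 CPM in SG G1-ILCs. Il18r1 averaged 202 ± 43.4 CPM in LPL ILC1s and 250.3 ± 19.9 CPM in BM iILC1s and was not called (adjusted p = 0.176 by edgeR, and 0.0113 with no filter on low counts). The receptor gene Il10ra averaged 30.2 ± 3.32 CPM in LPL ILC1s and 149.7 ± 21.9 CPM in BM iILC1s, and Tgfbr1 averaged 25.1 ± 3.29 CPM in LPL ILC1s and 60.9 ± 13.1 CPM in BM iILC1s. The JAK-STAT and SOCS list had 9 higher and 4 lower of 19. Stat3 averaged 2147 ± 174 CPM in LPL ILC1s and 399 ± 20.03 CPM in BM iILC1s, with 1166 and 1596 CPM in SG G1-ILCs. The inhibitor Socs1 averaged 86.98 ± 13.96 CPM in LPL ILC1s and 182 ± 13.98 CPM in BM iILC1s.

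Among costimulatory and checkpoint receptors, 11 of 28 were higher and 8 lower. Ctla4 was at 206, 216, 209 and 170.1 CPM in LPL ILC1s and 2.36, 0.786 and 2.79 CPM in BM iILC1s (log2 fold change 6.64 ± 0.43, adjusted p = 1.27e-12). Ctla4 competes with CD28 for its ligands on T cells. Icos, a costimulator of ILC2s and T cells, was at 464, 421, 420.1 and 468 CPM in LPL ILC1s and 80.7, 72.9 and 71.7 CPM in BM iILC1s. Of 22 genes of the TGF-beta pathway, 8 were higher and 4 lower. Among the 8 higher members, Pmepa1, Tgif1, Skil and Smad7 encode feedback inhibitors or targets of this pathway. The lower members were the receptor genes Tgfbr1, Tgfbr2 and Eng and the target Itgae, and Tgfbr2 averaged 146 ± 15.2 CPM in LPL ILC1s and 209 ± 10.4 CPM in BM iILC1s. Pmepa1 averaged 108 ± 11.9 CPM in LPL ILC1s and 1.06 ± 0.469 CPM in BM iILC1s, with 289 CPM in SG G1-ILCs.

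Interferon-stimulated genes were lower more often than higher. Of 29 tested, 15 were lower and 3 higher, with a median log2 fold change of -0.57. Ifit2 was at 0.875, 8.89, 2.796 and 6.92 CPM in LPL ILC1s and 35.7, 24.8 and 33.9 CPM in BM iILC1s, and Usp18, which shuts off the interferon receptor, averaged 3.69 ± 3.93 CPM in LPL ILC1s and 28.2 ± 8.75 CPM in BM iILC1s. Isg15 and Irf7 went the other way, with Irf7 at 565 ± 134 CPM in LPL ILC1s and 136 ± 19.2 CPM in BM iILC1s. Of 20 genes of MHC class I and peptide loading, 10 were higher and 3 lower, and H2-K1 averaged 6178 ± 424 CPM in LPL ILC1s and 2852 ± 61.3 CPM in BM iILC1s.

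Of 22 genes of glycolysis and hypoxia, 11 were higher and 5 lower. Hk2, the inducible hexokinase, was at 378, 355, 304 and 380.3 CPM in LPL ILC1s and 1.57, 2.55 and 7.59 CPM in BM iILC1s, whereas the housekeeping Hk1 averaged 139 ± 34.2 CPM in LPL ILC1s and 219 ± 25.1 CPM in BM iILC1s. Eno1, which encodes an enolase, averaged 649 ± 16.2 CPM in LPL ILC1s and 1167 ± 60.4 CPM in BM iILC1s. Of 23 genes of amino acid and lipid uptake, 12 were higher and 6 lower. Slc3a2, a chain of the large neutral amino acid transporter, averaged 1176 ± 94.7 CPM in LPL ILC1s and 121 ± 13.1 CPM in BM iILC1s. In SG G1-ILCs, Slc3a2 was at 926 and 840 CPM. Of 16 BCL2 family genes, 7 were higher and 4 lower, and the survival factor Bcl2 averaged 524 ± 79.8 CPM in LPL ILC1s and 1462 ± 79.8 CPM in BM iILC1s. Among genes of cell division, 3 of 32 replication genes were higher and 4 lower, and 1 of 30 mitosis genes was higher and 2 lower. Mki67, a marker of cycling cells, was at 37.9, 24.7, 37.9 and 32.96 CPM in LPL ILC1s and 46.7, 45.6 and 21.96 CPM in BM iILC1s (adjusted p = 0.735). Cdkn1a, the p21 inhibitor of the cell cycle, was at 472, 619, 527 and 566 CPM in LPL ILC1s and 3.53, 2.36 and 1.198 CPM in BM iILC1s, with 171 CPM in SG G1-ILCs.

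The genes with the largest decrease in LPL ILC1s included several that macrophages express. Apoe, an apolipoprotein gene, was at 0.875, 3.73, 3.56 and 1.94 CPM in LPL ILC1s and 152, 89.4 and 132 CPM in BM iILC1s, and Slc40a1, the iron exporter ferroportin, was at 2.92, 0.287, 1.02 and 1.39 CPM in LPL ILC1s and 37.3, 59.3 and 72.1 CPM in BM iILC1s. Vcam1 averaged 1.67 ± 0.737 CPM in LPL ILC1s and 52.97 ± 9.01 CPM in BM iILC1s. Defining macrophage genes such as C1qa moved with them, and 11 of the 21 tested genes of that list were lower, with Lyz2 at 1.37 CPM in LPL ILC1s and 153 CPM in BM iILC1s. The part of macrophage RNA in these decreases was not tested. Other members of this group are known from lymphocytes. Sema4a was at 35.9, 20.9, 40.7 and 17.7 CPM in LPL ILC1s and 646, 553 and 588 CPM in BM iILC1s (log2 fold change -4.36 ± 0.17, adjusted p = 1.26e-17). Tspan32 was at 16.3, 21.2, 27.4 and 16.3 CPM in LPL ILC1s and 215, 242 and 273 CPM in BM iILC1s (log2 fold change -3.57 ± 0.14, adjusted p = 3.23e-17). Sema4a encodes a semaphorin that costimulates T cells, and Tspan32 a tetraspanin of blood cells. Degs2 was at 0.875, 1.72, 1.02 and 2.22 CPM in LPL ILC1s and 43.98, 46.8 and 33.9 CPM in BM iILC1s, and Slfn1, a schlafen gene of quiescent lymphocytes, was at 0.875, 2.58, 0 and 6.92 CPM in LPL ILC1s and 41.8, 34.4 and 35.1 CPM in BM iILC1s. Cd81, Tnfrsf13c, Slfn9 and AB124611 completed the group, which was chosen only among genes without overlap between LPL ILC1s and BM iILC1s.

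The AL 7R+ ILC1s place these levels beside a liver population that also expresses IL-7R. LPL ILC1s differed from AL 7R+ ILC1s in 51% of genes tested and BM iILC1s differed from AL 7R+ ILC1s in 8.06%. The comparisons share libraries, so their counts are not independent. They also held 4 LPL but 3 BM libraries. Of these groups only LPL ILC1s came from enzyme-digested tissue, so organ and preparation cannot be told apart in these shares. For Hic1 the levels averaged 58.3 ± 13.8 CPM in LPL ILC1s, 3.57 ± 2.91 CPM in BM iILC1s and 62.8 ± 7.404 CPM in AL 7R+ ILC1s. On the log2 scale, LPL ILC1s differed from these liver cells by -0.11 ± 0.28 and BM iILC1s by -4.13 ± 0.37. P2rx7 averaged 60.5 ± 10.1 CPM in AL 7R+ ILC1s, with log2 differences of 0.73 ± 0.25 for LPL ILC1s and -4.55 ± 0.34 for BM iILC1s. For Zfp683, AL 7R+ ILC1s averaged 154 ± 9.82 CPM, above both LPL ILC1s (-3.63 ± 0.18) and BM iILC1s (-1.77 ± 0.17). For S1pr1, AL 7R+ ILC1s averaged 2.17 ± 1.697 CPM, below LPL ILC1s (3.03 ± 0.41) and BM iILC1s (5.99 ± 0.40). Kit and Rora were highest in LPL ILC1s, with AL 7R+ ILC1s at 38.2 ± 13.5 CPM for Kit and 125 ± 22.9 CPM for Rora. Gzmb averaged 1006 ± 171 CPM in AL 7R+ ILC1s, between LPL ILC1s (1.95 ± 0.17) and BM iILC1s (-3.87 ± 0.20). Tnfsf10 averaged 222 ± 0.503 CPM in AL 7R+ ILC1s, above both other groups, with log2 differences of -2.18 ± 0.20 for LPL ILC1s and -1.25 ± 0.20 for BM iILC1s.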

How the data were processed

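RNA-seq libraries were prepared with a SMART-seq HT kit from sorted cells. For the authors' files, fastp 0.23.0 was used for trimming and HISAT2 2.1.0 for alignment, against mm10. Reads were assigned to genes by featureCounts (Subread 1.6.5), and the deposited values are raw counts. The annotation, strand setting and treatment of reads shared between genes are not given in the sources used here. Gene names were taken by ID from GENCODE vM21, and 849 IDs without a name held 0.104% of counts.

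Counts were tested with edgeR 4.0.16 in R 4.3.3 (limma 3.58.1) by the quasi-likelihood test, with TMM scaling, a filter at a minimum count of 10, a mean for each of 8 groups and Benjamini-Hochberg adjustment over 14123 genes. After a mean CPM, ± gives the SD between the libraries of the group. After a log2 fold change or log2 difference, ± gives the SE. SE is the size of the log2 fold change divided by the square root of F. FL G1-ILCs replicates 2 and 3 differed by little more than sampling noise and were counted as 1 sample, leaving 24 samples. Totals are given in the report, and intervals and floors cover counting error only. Gene lists and tests were chosen with earlier results of these data known. Named genes were a core panel and the 12 largest differences per direction. The latter had an average log2 CPM of at least 4, no overlap, and a highest library at most 3 times the lowest in the higher group. Up to 4 members per list and direction were added, up to 8 for the digestion list and up to 3 markers per cell type. Members of the lists other than cell type markers had to be called and without overlap. Outside the core panel their separation was therefore fixed by the choice. A few others, such as Ikbkg, C1qb and Cxcl9, were chosen after their values were seen, and some genes of the panel are not reported here. On simulated counts for 13723 genes, 17 of 65 changes of 1.5-fold, 42 of 67 of 2-fold and 53 of 66 of 4-fold were called, with 5 false among 117 calls. All other genes were simulated with equal means in LPL ILC1s and BM iILC1s. The real comparison called 50.7% of genes, so these rates need not hold for it. Alternatives were DESeq2 1.42.0, RLE scaling, other filters and thresholds, fewer or more libraries, a replicate block and leaving out each library.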

Additional observations from a re-analysis of the deposited data

Results flagged for a closer look

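In 10 of 146 named genes (6.85%), 1 of the 4 LPL ILC1s libraries stood far from the other 3 by Dixon's criterion (the gap to the nearest library over the whole range). Chance flags about 1 in 20 groups. Ikzf1 was at 57.16 CPM in replicate 1, and 92.51 to 93.35 CPM in the other LPL libraries. Ltb was at 673.1 CPM in replicate 2, and 524.5 to 545.1 CPM in the others. Replicate 3 held 5 of the 10 genes. Slfn9 was at 7.116 CPM there and 0.554 to 0.8749 CPM in the others, Syk at 34.05 CPM there and 25.08 to 26.59 CPM in the others, and Klf2 at 346.4 CPM there and 240.9 to 257.6 CPM in the others. Hcar2 was at 34.31 CPM there and 48.2 to 51.05 CPM in the others, and Ccr9 at 31.77 CPM there and 61.95 to 64.54 CPM in the others. Eomes was at 111.1 CPM in replicate 4, and 23.13 to 37.04 CPM in the others. The globin genes Hba-a1 at 0.8604 CPM in replicate 2 and Hbb-bs at 0.2916 CPM in replicate 1 had no count in the other LPL libraries, values of 3 and 1 counts.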

How the results depend on the processing

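The 7155 calls (3360 higher and 3795 lower in LPL ILC1s) stayed within 1.5 times under 11 changes of processing and every left-out library, and came to 4252 (1915 higher and 2337 lower) where a log2 fold change beyond 1 was also asked. Leaving out each library in turn gave 6365 to 6926 calls, 2950 to 3264 of them higher and 3391 to 3674 lower, and 55 to 56 digestion response genes. DESeq2 gave 7231 calls (3680 higher and 3551 lower). The fit of the 7 LPL and BM libraries alone gave 6081 (3101 higher and 2980 lower). In both, higher calls were the more frequent, unlike in the main fit. The replicate numbers did not pair the samples, with correlations of -0.0553, -0.0229 and -0.0163 between same-numbered libraries, and a replicate block gave 6912 calls. Ltf turned to a log2 fold change of 1.206 without BM iILC1s replicate 2, and covered -5.821 to 1.206 over all left-out libraries. Itga1 lost its call with DESeq2 (adjusted p = 0.13) and without LPL ILC1s replicate 1, BM iILC1s replicate 1 or BM iILC1s replicate 2 (0.051 to 0.176). Cd74 lost its call with DESeq2 (0.15), with the replicate block (0.0912) and without LPL ILC1s replicates 2 or 3 or BM iILC1s replicates 2 or 3 (0.0551 to 0.175). Mmp9 lost its call with DESeq2 (0.26) and without BM iILC1s replicates 1 or 3 (0.0577 to 0.0636), and Ccr2 without BM iILC1s replicate 3 (0.0754). Klf2 was called higher with DESeq2 (0.037), RLE scaling (0.046) and the replicate block (0.0398). Itga4 was called lower with no filter (0.0149), with thinned counts (0.0489) and without LPL ILC1s replicate 3 (0.0122), and Il18r1 with no filter (0.0113). Depth limits genes near the floor of 3 counts.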
